A study of Mus musculus with 8 samples.

Results

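The genes described here encode the proteins of the cytosolic ribosome in mouse CD4+ T cells. They were chosen by symbol alone (Rpl or Rps followed by a number with an optional a or x, Rplp0 to Rplp2, and Rpsa), which gave 76 of the 24421 gene symbols, 46 for the large subunit and 30 for the small subunit. Helper T cells carrying CD4 had been sorted after enzymatic digestion of the knees of male mice, 16 weeks old, with antigen-induced arthritis, a joint inflammation set off by an antigen to which the animal was immunised. 4 libraries were labelled wild type and 4 were labelled Slc7a5 knockout. All animals of both genotypes had arthritis, so no library describes a resting joint. The labels do not give the deleted allele, the Cre line if one was used, the number of cells in a library, or whether animals were pooled or shared between libraries. The p-values therefore reflect variation among the 8 libraries, part of which may be technical.

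The cytosolic ribosome reads messenger RNA on its small subunit and joins amino acids on its large subunit, and its proteins are made in near equal numbers from genes scattered over the genome. Their messenger RNAs usually begin with a C followed by a run of C and T (U in the RNA), the 5′ terminal oligopyrimidine or TOP sequence, through which the kinase complex mTORC1 and the RNA-binding protein LARP1 control their translation and stability. Slc7a5 encodes LAT1, a transporter that brings leucine and other large neutral amino acids into activated T cells, and leucine is one of the inputs of mTORC1. RNA counts measure the level of these messengers and not their translation.

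The annotated starts are shown for Rps6, the best known target of the mTORC1 pathway among these proteins. They are also shown for the 6 members with higher and the 6 with lower estimates and the smallest p, whose values are given below. Each is 30 bases long, with 15 bases before the annotated start and 15 from it, taken from RefSeq on GRCm38.p6, the build whose coordinates mm10 carries. Capitals mark the run of C and T that holds the first transcribed base. Rps6, Rps18, Rpl35 and Rpl14 have a long run, and Rpl27 and Rpl13 a short one, which in Rpl13 holds no C. Rpl4, Rpl9, Rplp0, Rpsa, Rpl10, Rpl18 and Rps16 have none at the annotated position. Whether the annotated starts are those used in these cells was not tested.
Rps6 (chr4:86857353-86857382, minus strand): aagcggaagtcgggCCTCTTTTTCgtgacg
Rpl14 (chr9:120571502-120571531, plus strand): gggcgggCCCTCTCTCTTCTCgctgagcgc
Rpl27 (chr11:101442230-101442259, plus strand): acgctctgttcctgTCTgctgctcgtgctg
Rps18 (chr17:33955651-33955680, minus strand): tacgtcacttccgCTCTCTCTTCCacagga
Rpl4 (chr9:64173372-64173401, plus strand): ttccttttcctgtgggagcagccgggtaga
Rpl9 (chr5:65391417-65391446, minus strand): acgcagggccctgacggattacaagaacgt
Rpl35 (chr2:39005117-39005146, minus strand): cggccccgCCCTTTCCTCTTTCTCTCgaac
Rpl13 (chr8:123102335-123102364, plus strand): ttccctttcgcctgaTTTTgattggcgttt
Rpsa (chr9:120127751-120127780, plus strand): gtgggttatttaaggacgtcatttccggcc
Rplp0 (chr5:115559452-115559481, plus strand): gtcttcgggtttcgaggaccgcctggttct
Rpl10 (chrX:74270801-74270830, plus strand): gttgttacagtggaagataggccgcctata
Rpl18 (chr7:45718056-45718085, plus strand): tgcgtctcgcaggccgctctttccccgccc
Rps16 (chr7:28350674-28350703, plus strand): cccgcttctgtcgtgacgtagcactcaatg

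A start was matched for 56 of the 76 members. A gene with several annotated starts was counted if any of them held the sequence, whereas the sequences above show the first listed start. A C at an annotated start with at least 4 further C or T directly after it was present in 13 of the 56 (23.2%), against 448 of 16522 protein-coding genes (2.71%). Allowing the run to begin at most 5 bases from the annotated start gave 27 of 56 (48.2%) against 21.8% of all. In the 300 bases around the start (250 before and 50 after), searched on both strands, CCGGAAG, the core bound by the activator GABP, was present in 41.1% of members and 13.4% of all protein-coding genes. AAGATGGC, a motif of YY1, was present in 8.93% and 3.64%, GGGCGG, the box of SP1, in 60.7% and 51%, and TATAAA in 10.7% and 14.3%. The GABP core was present in 41.2% of large and 40.9% of small subunit members. These matches describe annotated sequence and were not set against the expression values.

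Library totals ran from 18837650 to 36436923 counts. Knockout replicate 4 stood apart, with 5221 genes detected against 7684 to 10139 in the other 7 libraries. Its Cd4 level was 1.78 CPM (the usual depth-scaled count unit, with TMM-adjusted library sizes as the depth) against 344 to 570 in the others, although its Cd3e level was 382 CPM, against 330 to 381 in the other knockout libraries and 407 to 554 in wild type. Its Cd8b1 level was 123 CPM, against 0 to 20.3 elsewhere, but Cd8a, Klrb1c and Ncr1, read with it as CD8 T and NK cell markers, were at 0 CPM there. All 5 tested T cell markers had lower estimates in knockout, as had 55% of all tested genes (marker median -0.39, none at an unadjusted p under 0.05). With an offset for GC content 4 of the 5 had higher ones, against 55.1% of all tested genes. For Slc7a5 the wild-type replicates 1 to 4 gave counts of 385, 194, 410 and 0 and the 4 knockout libraries 0 each, so the targeted gene does not separate wild-type replicate 4 from the knockout. Knockout replicate 2 gave 13.9% of its counts to Actb against 3.09% to 8.47% elsewhere. Markers of antigen-presenting and myeloid cells summed to 1218 to 3001 CPM in wild type and 1926 to 10891 in knockout. Of 6 tested, 5 were higher, against 45% of all tested genes. An unadjusted p under 0.05 was reached by 4 of them (Cd74, H2-Aa, H2-Ab1 and H2-Eb1), against 1.87% of all tested genes in that direction. Cd74 and H2-Ab1 averaged 4837 and 2071 CPM of a mean knockout sum of 7861, while the estimates of Cd68 and Lyz2 were 0.37 and -1.87. The macrophage gene Adgre1 and the B cell gene Ms4a1 had 0 counts in all 8 libraries, but other genes of those cells were present. Csf1r was at 44.3 and 21.9 CPM in knockout replicates 2 and 3 and at 0 in all wild-type libraries, and Cd79b at 35.2 and 30.6 CPM in the same knockout libraries and at most 8.12 CPM in wild type. Whether other cells contributed to the values below was not tested.

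Ribosomal protein genes took 2.2%, 2.22%, 2.17% and 1.9% of all counts in wild-type replicates 1 to 4. They took 1.78%, 1.32%, 1.96% and 2.42% in knockout replicates 1 to 4. Knockout replicate 2 was the lowest of the 8 libraries and knockout replicate 4 the highest, so the groups overlapped. The means were 2.12% ± 0.15 (SD, n = 4) and 1.87% ± 0.454 (SD, n = 4), and the difference was smaller than the spread among the knockout libraries. Without knockout replicate 4 the knockout mean was 1.69% ± 0.333 (SD, n = 3). Counting error was small beside these differences, since the 95% Wilson interval of a library's share reached at most 0.00694 percentage points to either side. With Actb left out of the total, the shares were 2.37%, 2.33%, 2.29% and 1.96% in wild type (mean 2.24%) and 1.85%, 1.53%, 2.15% and 2.56% in knockout (mean 2.02%). Fewer cells of a type and less RNA per cell cannot be told apart in such bulk libraries.

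**Figure D1:**
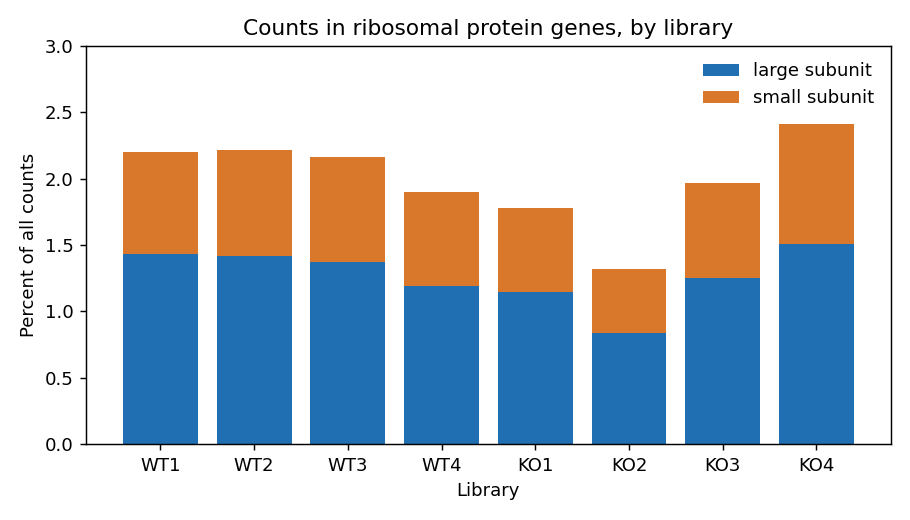
Percent of all counts (vertical axis) in large and small subunit genes, stacked, for each of the 8 libraries (horizontal axis; WT, wild type; KO, knockout). The totals run from 1.32% in KO2 to 2.42% in KO4, and the 4 wild-type libraries lie between 1.9% and 2.22%.

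The proportion of large to small subunit counts differed between the genotypes by less than the spread between replicates. Large subunit genes took 1.35% ± 0.113 of wild-type counts and 1.19% ± 0.279 of knockout counts, and small subunit genes 0.767% ± 0.0403 and 0.685% ± 0.176 (SD, n = 4 each). The ratio of large to small subunit counts was 1.85, 1.79, 1.72 and 1.67 in wild-type replicates 1 to 4 and 1.82, 1.73, 1.73 and 1.67 in knockout replicates 1 to 4. The groups spanned nearly the same range, and their means were 1.76 ± 0.0798 and 1.74 ± 0.061. The difference of -0.0213 changed sign without knockout replicate 4 (0.00169) and without wild-type replicate 1 (0.0102).

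The libraries also differed in how evenly the members moved. On the scale of log2(CPM + 1) minus the wild-type mean of each gene, the median over the 74 tested members was between -0.23 and 0.10 in the 4 wild-type libraries. It was -0.24, -0.38, 0.01 and 0.27 in knockout replicates 1 to 4. In knockout replicate 4 the median over all tested genes was -2.36, so the median ribosomal protein gene was above its wild-type mean in a library where the median gene was far below it. That library was the highest of the 8 for 35 of 74 members (47.3%, against 18.3% of all tested genes) and the lowest for 13 (17.6%, against 32.2%). The median wild-type level was 186 CPM over the 76 members and 37.8 CPM over all tested genes. Whether other genes as abundant as the members moved in the same way was not tested. Knockout replicate 2 was the lowest for 25 members (33.8%, against 10.7%). Wild-type libraries were uneven too: replicate 4 was the lowest for 18 members (24.3%, against 8.38%) and replicate 1 the highest for 14 (18.9%, against 10.9%).

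**Figure D2:**
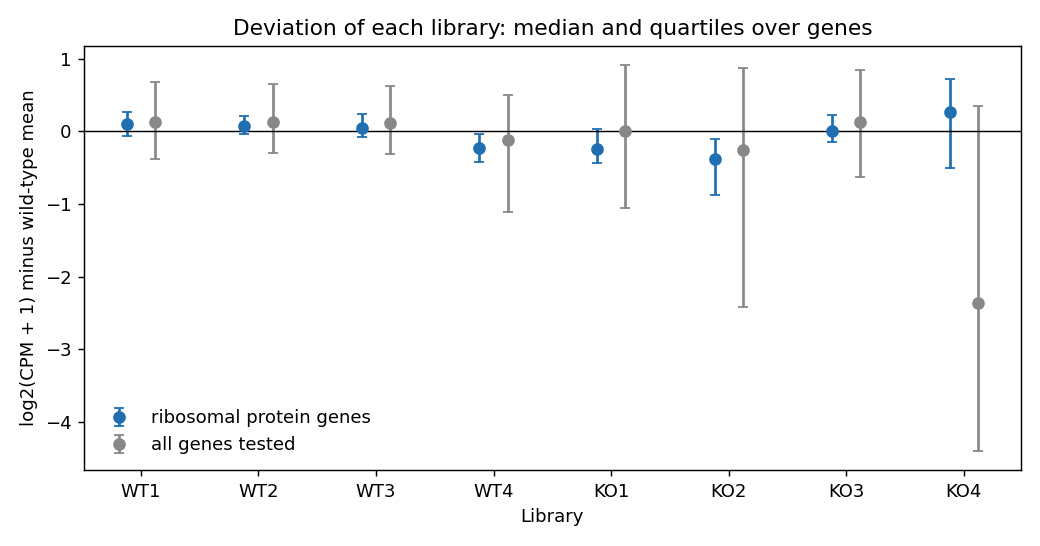
Deviation of each library from the wild-type mean on the log2(CPM + 1) scale (vertical axis) for ribosomal protein genes (blue) and all tested genes (grey). Points are medians over genes and bars run from the lower to the upper quartile. In KO4 the median is 0.27 for ribosomal protein genes and -2.36 for all tested genes. The 2 sets are not matched for level.

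Among genes with a wild-type mean of at least 100 CPM, the members varied less between libraries of one genotype than the others did. The median coefficient of variation over 51 members was 15% in wild type and 30.7% in knockout, against 26.8% and 48.2% for the other 1863 genes. Without knockout replicate 4 the knockout values were 23% and 32.6%. These are descriptions over genes, which are not independent replicates.

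The comparison of knockout with wild type asks how loss of the transporter bears on these messengers. No gene passed an adjusted p under 0.05 in edgeR's quasi-likelihood test, 0 of 8489 tested (0%), and 326 genes had an unadjusted p under 0.05. DESeq2, run on 12849 genes without the filter on low counts, called 387 and limma voom 9, and no member was among them. Without that filter edgeR called 0 of 12849. 74 of the 76 members passed the filter on low counts, and their adjusted p ran from 0.78 to 0.9999. Estimates were higher in knockout for 31 of the 74 (41.9%) and lower for 43, against 45% higher among all tested genes. The median log2 fold change was -0.09 over members and -0.12 over all tested genes. For the large subunit 19 of 44 were higher (median -0.10), and for the small subunit 12 of 30 (median -0.09). This split turned with an offset for GC content, under which 62 of 74 were higher (83.8%, against 55.1% of all tested genes). The member median was then 0.59, while the median of all genes moved by 0.28 to 0.16. Without knockout replicate 4, 16 of 74 were higher (21.6%, against 46.5% of all tested genes). The median was then -0.18 over members and -0.08 over all tested genes. The transcripts of the members had a median GC content of 51.9%, against 49.8% for all tested genes.

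4 members had an unadjusted p under 0.05, all with lower estimates in knockout (5.41% of 74, against 1.97% of all tested genes in that direction), and no member had one in the other direction (1.87% of all tested genes). For 5 members all knockout libraries were lower than all wild-type libraries (6.76%, against 4.62% of all tested genes). For 0 members were all of them higher (0%, against 1.52%).

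The stalk of the large subunit recruits the elongation factors that hydrolyse GTP. Rplp0, its base, was at 1379, 1390, 1363 and 1144 CPM in wild-type replicates 1 to 4. The knockout replicates, in the same order, gave 1076, 774, 1023 and 602 CPM. The 2 groups did not overlap. The estimate was -0.60 ± 0.22 on the log2 scale (SE, unadjusted p = 0.0174, edgeR adjusted p = 0.835), and -0.09 with the GC offset. Rplp0 made up 6.35% ± 0.153 of all member counts in wild type and 4.68% ± 1.56 in knockout (SD, n = 4 each), with 6.26% in knockout replicate 1 and 2.53% in replicate 4. These shares overlapped between the groups, and the knockout mean was 5.39% without replicate 4. Its partners in the stalk, Rplp1 and Rplp2, had group means of 254 and 218 CPM and of 65 and 56.2 CPM in wild type and knockout, and their groups overlapped.

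Rpl13, a protein of the large subunit's solvent side, was at 547, 530, 515 and 586 CPM in the wild-type libraries, against 404, 206, 363 and 344 CPM in the knockout libraries. The groups did not overlap, and the estimate was -0.73 ± 0.26 (SE, unadjusted p = 0.0152, edgeR adjusted p = 0.78). Leaving out knockout replicate 4 gave -0.76, while the GC offset gave 0.03. All of its 75-base coding windows also occur in other annotated genes, so its reads may be shared with copies.

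Rpsa, a protein of the small subunit also known as the laminin receptor, was at 351, 292, 276 and 293 CPM in the wild-type libraries, against 135, 110, 232 and 50.1 CPM in the knockout libraries. No knockout library reached the wild-type range, and the estimate was -1.20 ± 0.43 (SE, unadjusted p = 0.0167, edgeR adjusted p = 0.815). The value was -0.95 without knockout replicate 4 and -0.67 with the GC offset. Only 9.46% of its coding windows are found in no other gene.

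Rpl10, an X-linked protein that joins the large subunit last in its assembly, was at 721, 256, 266 and 99.1 CPM in the wild-type libraries, against 125, 129, 207 and 135 CPM in the knockout libraries. Wild-type replicate 1 was far above the rest and wild-type replicate 4 below every knockout library, so the groups overlapped (-1.17 ± 0.51, SE, unadjusted p = 0.0417, edgeR adjusted p = 0.9999). The estimate was -0.48 without wild-type replicate 1 and -0.64 with the GC offset. Rpl18 and Rps16 had the next smallest p among lower estimates, at -0.87 ± 0.45 and -0.59 ± 0.34 (SE), and they were at -0.19 and -0.11 with the GC offset. Rps16 was at 254, 213, 248 and 212 CPM in wild type and 209, 107, 164 and 136 CPM in knockout, without overlap. The fifth member without overlap was Rps2, named after its values were seen, at 351, 395, 467 and 315 CPM in wild type and 313, 211, 287 and 22.6 CPM in knockout.

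The 6 members with higher estimates and the smallest p were Rpl14, Rpl27, Rps18, Rpl4, Rpl9 and Rpl35, and none had an unadjusted p under 0.05. In each of them knockout replicate 4 was the highest library. Rpl27 was at 157, 134, 149 and 59.5 CPM in the wild-type libraries, against 98.4, 143, 110 and 451 CPM in the knockout libraries. Its estimate of 0.69 ± 0.55 (SE) was -0.10 without knockout replicate 4. Rpl4, which lines the exit tunnel, was at 1261, 1505, 1357 and 1043 CPM in the wild-type libraries, against 1254, 1354, 1263 and 2088 CPM in the knockout libraries. Its estimate went from 0.21 to -0.02 without that library, and that of Rpl9 from 0.34 to -0.09. Rpl14 stayed above 0, at 0.11 against 0.55, as did Rps18 at 0.01 against 0.33 and Rpl35 at 0.04 against 0.28. With the GC offset and all libraries, the 6 estimates were larger, at 1.40 for Rpl14, 1.73 for Rpl27, 1.19 for Rps18, 0.84 for Rpl4, 1.14 for Rpl9 and 1.16 for Rpl35.

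**Figure D3:**
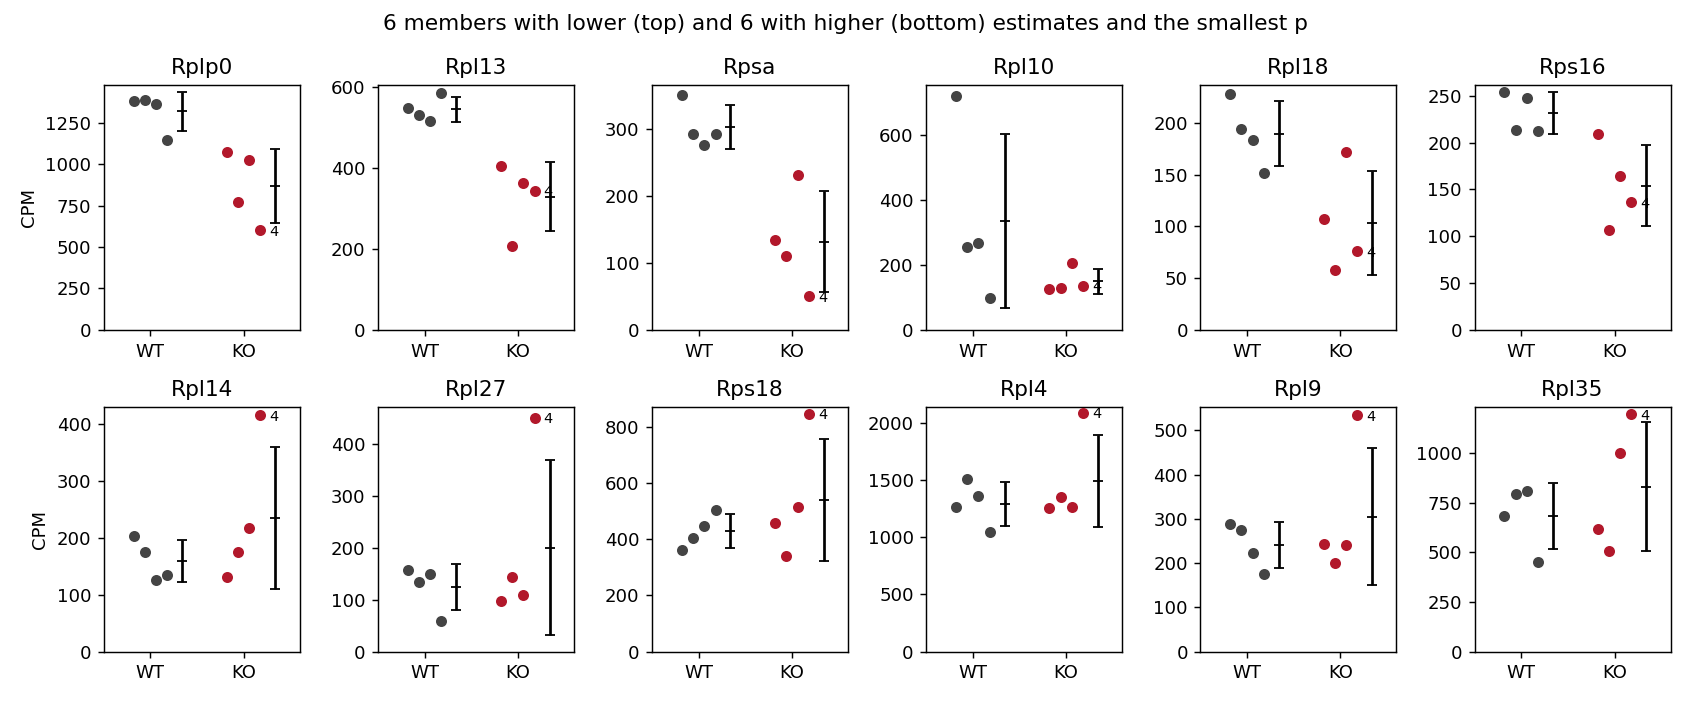
CPM (vertical axes, from 0) of the 6 members with lower estimates and the smallest p (top) and the 6 with higher estimates (bottom) in wild-type and knockout libraries. Points are libraries in replicate order, the 4 marks knockout replicate 4, and bars give the mean ± SD of 4 libraries. In the bottom row knockout replicate 4 is the highest point of every panel.

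Of the 5S RNA particle, Rpl5 and Rpl11 bind the p53 regulator MDM2 when ribosome assembly fails. Rpl5 was at 981 ± 241 CPM in wild type and 1015 ± 303 in knockout, and Rpl11 at 172 ± 13.5 and 134 ± 45.1 (SD, n = 4 each). Both pairs of groups overlapped. Among the 7 tested proteins of the exit tunnel and its rim 6 had higher estimates (median 0.17), against 45% of all tested genes. Without knockout replicate 4, 2 of the 7 had higher ones, against 46.5% of all tested genes. The 3 near the peptidyl transferase centre had lower estimates (median -0.31), as had 55% of all tested genes. With the GC offset 2 of the 3 were higher, as were 55.1% of all tested genes. The difference between these groups was not tested. Rpl22, which is needed for the development of alpha-beta T cells, was low, at 28.8 ± 15.8 and 33.4 ± 14.7 CPM. Its paralogue Rpl22l1 was at 47.4 ± 29.5 and 33.2 ± 27.4 CPM. Rpl13a was at 643 ± 42.2 and 604 ± 157 CPM, Rpl41, the shortest protein of the ribosome, at 222 ± 41.9 and 266 ± 104, and the X-linked Rpl39 at 16.5 ± 4.92 and 12.3 ± 10.4 (SD, n = 4 each).

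In the small subunit, 6 of 14 proteins of the head had higher estimates (median -0.07) and 6 of 16 of the body and platform (median -0.15), against 45% of all tested genes. Rps6, the substrate of the S6 kinases downstream of mTORC1, was at 578, 603, 589 and 636 CPM in the wild-type libraries, against 459, 476, 597 and 933 CPM in the knockout libraries. Knockout replicates 1 and 2 were below the wild-type range and replicate 4 above it (0.03 ± 0.25, SE, unadjusted p = 0.893, edgeR adjusted p = 0.9999), and the estimate was -0.25 without replicate 4. Rps19, the gene most often mutated in Diamond-Blackfan anaemia in humans, was at 307, 330, 339 and 437 CPM in wild type, with 239, 210, 349 and 845 CPM in knockout. Here too knockout replicates 1 and 2 were below the wild-type range and replicate 4 above it, and the estimate went from 0.22 to -0.42 without that library. Rps14 was at 889 ± 65.3 and 935 ± 287 CPM, Rps3 at 715 ± 110 and 572 ± 101, Rps26 at 204 ± 27.8 and 252 ± 137, and the X-linked Rps4x at 244 ± 41.2 and 216 ± 126 (SD, n = 4 each). Rps27a, which is made as a fusion with ubiquitin, was at 142 ± 30.5 and 133 ± 46.8 CPM, and Rps29 at 48.3 ± 13.5 and 45.7 ± 22.8 CPM. In all of these the groups overlapped.

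**Figure D4:**
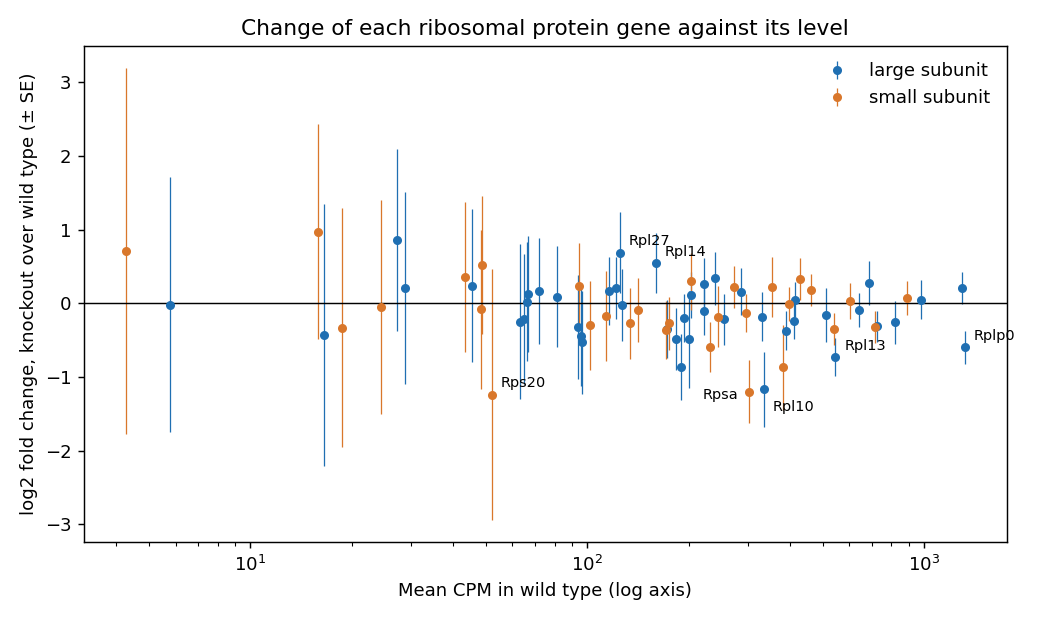
log2 fold change of knockout over wild type with its SE (vertical axis) against the mean wild-type CPM on a log axis (horizontal axis) for the 74 tested members, by subunit. SE run from 0.21 to 0.66 at 100 CPM or more and from 0.58 to 2.48 below it, and no member passed the adjusted threshold.

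A few members were close to or at 0. Rpl26 had 0 counts in all 8 libraries, where 3 counts would be 0.0834 to 0.167 CPM, and Rpl30 had 16 counts, all in wild-type replicate 1. Both are proteins of the large subunit that every ribosome carries, so these zeros describe the deposited counts and not the proteins. Rps20 was at 50.4, 66, 49.5 and 42.8 CPM in the wild-type libraries, against 22.3, 5.17, 60.6 and 0 CPM in the knockout libraries (-1.24 ± 1.70, SE). The counts of Rps27 were 114, 1, 0 and 315 in wild type and 147, 140, 0 and 270 in knockout.

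Per kb of transcript, which allows levels of different genes to be compared, the wild-type order began with Rps14 at 1489 ± 109 CPM per kb, Rplp0 at 971 ± 86.4 and Rpl4 at 840 ± 126 (SD, n = 4 each). Rps14 lay above Rplp0 by more than their spread, while Rplp0 and Rpl4 differed by about 1 SD. The median was 216 CPM per kb, 229 for the large and 216 for the small subunit, and the lower and upper quartiles over members were 130 and 508. Rps20, Rps24, Rps3 and Rpl5 have long annotated transcripts, which lowers their values per kb.

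The coding sequences of these genes are widely copied in the genome, mostly as processed pseudogenes. Of the 76 members, 74 share at least 1 window of 75 coding bases with another annotated gene, and 23 (30.3%) have no window of their own, against 1.59% of tested genes. The median share of windows found in no other gene was 14.2% for members and 100% for all tested genes. The 15 members with at least 50% of windows to themselves had a median wild-type level of 509 CPM per kb, against 203 for the 23 with none and 202 for the 38 between. The Spearman correlation over the 76 members was 0.16, 0.42 in the small and -0.02 in the large subunit. Rps3 shares no window. Rpl26 and Rpl30, at or near 0, share 260 of 364 and 199 of 274 windows, which leaves 28.6% and 27.4% to themselves. The 23 members with none ran from 4.28 to 981 CPM in wild type. How reads that match several places were counted is not given in the sources used here, so levels of members with shared windows are uncertain, and the part of read sharing in them was not tested.

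**Figure D5:**
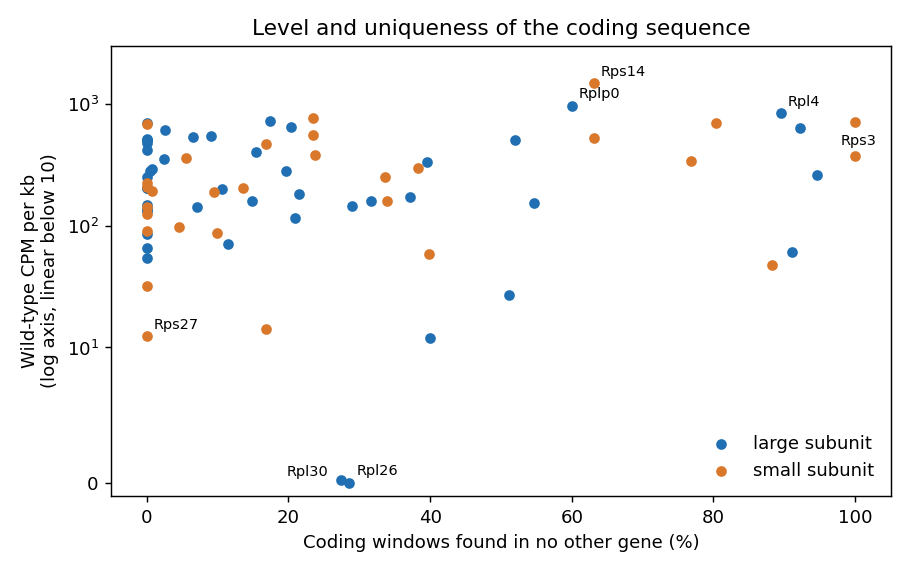
Wild-type CPM per kb (vertical axis, log above 10 and linear below) against the percent of 75-base coding windows found in no other annotated gene (horizontal axis) for the 76 members, by subunit. Members with 0% of windows to themselves span nearly the whole range of levels, and Rpl26 and Rpl30 lie at the bottom.

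Genes next to these in the pathway were read from lists. 3 ribosomal proteins whose symbols fall outside the rule, Fau, Rps3a1 and Gnb2l1 (Rack1), had lower estimates, as had 55% of all tested genes. The estimate of Fau turned to 0.79 with the GC offset. The summed level of the 3 was 1257 ± 212 CPM in wild type and 919 ± 124 in knockout (SD, n = 4 each) without overlap, though none had an unadjusted p under 0.05. Of 15 other TOP transcripts 7 had higher and 8 lower estimates (median -0.03), against 45% higher among all tested genes, and none passed. For 2 of the 15 every knockout library was below every wild-type library, against 4.62% of all tested genes. Eef2, the elongation factor that moves the ribosome along, was at 1528, 839, 872 and 615 CPM in wild type and 456, 308, 513 and 394 CPM in knockout, without overlap (-1.21 on the log2 scale, unadjusted p = 0.00152, and -0.43 with the GC offset). Eef1a1, which delivers aminoacyl-tRNA, was at 2488 ± 202 and 2034 ± 92.3 CPM, also without overlap. Of 10 tested genes of TOP control, 5 were higher and 5 lower, against 45% higher among all tested genes. Of 7 chaperones of ribosomal proteins, 5 were higher, against 45% of all tested genes. Of the 7, 1 had every knockout library above every wild-type library, against 1.52% of all tested genes. This was Bccip, at 137, 139, 115 and 85.4 CPM in wild type and 195, 165, 183 and 594 CPM in knockout (1.26, unadjusted p = 0.0193, and 0.59 without knockout replicate 4).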

How the data were processed

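The authors deposited unnormalised read counts by gene symbol for 8 libraries made with a low-input kit, per the labels' protocols. Per the submitters' processing notes, the tools were HISAT2 2.1.0, featureCounts and edgeR 3.28.1, with the build mm10. The annotation, strand setting, multi-mapping and duplicates are not given in the sources used here.

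Counts were filtered (filterByExpr of edgeR 4.0.16, minimum count 10, minimum total 15), scaled by TMM and tested with the robust quasi-likelihood method of edgeR in R 4.3.3, with Benjamini-Hochberg adjustment over all 8489 tested genes and genotype as the only term. SE was obtained by dividing the log2 fold change by the root of its F statistic. Transcript length and GC came from the shortest complete principal transcript of GENCODE vM21 (98.5% of symbols). Alternatives were other filters and scalings, DESeq2 1.42.0, limma 3.58.1 voom, a GC offset, a replicate block and each library left out. The script was checked on simulated counts. The check required large changes to be recovered only at a dispersion (spread beyond counting error) well below 2.36, the common value in these data. It therefore does not show which changes could be called at the spread of these libraries.

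The members and lists were chosen with earlier results of these data known. Genes named were the 6 higher and 6 lower members ranked by p among those averaging 5 CPM or more, the 3 highest per kb in wild type, members at 0 in a library with that mean, and fixed lists of members and neighbours, of which some items are not reported here. Library totals of 18837650 to 36436923 counts make counting error small beside the spread between libraries, and intervals and floors cover counting error only.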

Additional observations from a re-analysis of the deposited data

Results flagged for a closer look

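With 41 values examined in 2 groups each (82 groups of 4 libraries), 9 held 1 library far from the other 3. For independent values not picked from the data, chance would flag about 1 in 20 (4.1). Some of these genes were named by their p in these data, and all values share the same libraries. The number 4.1 is therefore no expectation for this list. In knockout, replicate 4 was flagged as high for Rpl27 (451 CPM), Rpl4 (2088 CPM) and Rpl9 (534 CPM). Replicate 3 was flagged as high for Rpl10 (207 CPM) and replicate 1 as low for Rplp2 (35.4 CPM). In wild type, replicate 4 was flagged as low for Rplp0 (1144 CPM, against 1363 to 1390 in replicates 1 to 3) and Rpl39 (9.23 CPM). It was also flagged as low for the share of counts in all members (1.9%), and replicate 1 as high for Rplp1 (301 CPM).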

How the results depend on the processing

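No member passed an adjusted p under 0.05 in any fit run. The count of genes called, 0 in the edgeR fit, was 387 with DESeq2, which was run on 12849 genes without the filter. With edgeR and no filter it was 0 of 12849. It was 9 with limma voom, 4 with limma voom and quality weights, and 4 with limma voom without robust moderation. The last was tried after the data were seen and after an earlier account of them gave that count. The number of genes called was 0 with every library left out in turn. Members with a higher estimate, 31 of 74, numbered 62 with the GC offset and 19 with voom quality weights. With 1 library left out they numbered 16 to 36, 16 being without knockout replicate 4. Of all tested genes, 55.1% were higher with the GC offset and 46.5% without knockout replicate 4. Against the median of all genes, a reading added later, 39 were higher. Members with every knockout library below wild type, 5, numbered 5 to 12 with 1 library left out: 12 without wild-type replicate 4, 11 without knockout replicate 3 and 8 without knockout replicate 4. Members with every knockout library above numbered 0 to 1. Leaving out a library makes both rules easier to meet, so a rise in these counts is no result about the members. The share of all tested genes that meet these rules with a library left out is not given. The difference in share of counts, -0.247 percentage points, ran from -0.429 to -0.0633 with 1 library left out (-0.0633 without knockout replicate 2, -0.429 without replicate 4). The difference in the large to small ratio, -0.0213, was 0.19 as a ratio of median CPM, 0.00315 with Fau and Rps3a1 counted in, a narrower set than planned that was chosen after the data were seen, and -0.0508 to 0.0102 with 1 library left out.

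Of 37 named genes, 16 kept their sign in all 20 other fits and 21 did not. With the GC offset the sign turned for Rpl13 (0.03), Rplp1 (0.54), Rplp2 (0.61), Rpl11 (0.23), Rpl13a (0.71), Rps3 (0.17), Rps27a (0.49), Rps4x (0.60), Rps29 (0.70), Fau (0.79) and Eef1a1 (0.13). With voom quality weights it turned for Rpl27 (-0.26), Rpl4 (-0.07), Rpl9 (-0.06), Rps14 (-0.12), Rpl5 (-0.24), Rps6 (-0.15), Rps19 (-0.19) and Rps26 (-0.08). Rpl5 and Rps6 turned with library totals only (-0.03 and -0.04), with voom, robust or not (-0.02 and -0.03), and with upper quartile scaling (-0.06 and -0.08), where Rps14 was -0.03. With 1 library left out, estimates ran from -0.10 to 0.92 for Rpl27, -0.02 to 0.28 for Rpl4, -0.09 to 0.47 for Rpl9, -0.17 to 0.18 for Rps14, -0.18 to 0.17 for Rpl5, -0.10 to 0.54 for Rpl22, -0.30 to 0.01 for Rpl13a, -0.03 to 0.40 for Rpl41, -0.25 to 0.16 for Rps6, -0.42 to 0.41 for Rps19, -0.15 to 0.46 for Rps26, -0.26 to 0.05 for Rps27a, -0.63 to 0.03 for Rps4x, -0.33 to 0.15 for Rps29 and -0.28 to 0.05 for Fau. The cause of these changes was not tested.

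Same-numbered libraries did not deviate together (correlations -0.0218, 0.018, 0.0208 and 0.053). The labels state no pairing, and so few correlations cannot exclude one. The replicate block gave 0 genes called, 28 of 74 members higher, and -0.03 for Rps6 and -0.01 for Rps19. What depth limits was not tested by thinning the counts.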
